A study of Homo sapiens with 2 samples.

Results

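The immune checkpoint ligands described here are genes of tumour cells whose products restrain or trigger immune cells, the enzyme IDO1 among them. Members were the rows of the deposited expression table whose gene symbol was on a list of 10 genes, and 9 of the 10 were found among 21382 genes. The tenth, NECTIN2, was not analysed here. The data are RNA-Seq of 2 lines of human prostate cancer cells, both untreated and with 1 library each, from a study of how such cells and platelets signal to each other. MDA PCa 2b, a line from a bone metastasis of prostate cancer, was grown in Kaighn's modified F-12 medium with bovine serum, cholera toxin, epidermal growth factor, phosphoethanolamine, hydrocortisone, selenite and insulin. RC77 T/E, an immortalised epithelial line from a prostate tumour, was grown in a serum-free keratinocyte medium with epidermal growth factor and pituitary extract. Cell line and medium therefore cannot be told apart, and no difference between the lines has a replicate check. The libraries were directional, paired-end and made from total RNA, and both RNA preparations passed the authors' integrity check.

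T cells, NK cells and macrophages carry receptors that read ligands on the cells they meet. PD-L1 and PD-L2 engage PD-1 on T cells and dampen their response, the nectin-like protein CD155 is read by both inhibitory and activating receptors, and CD47 tells macrophages not to engulf the cell. Interferon gamma, released by activated T cells, raises PD-L1 and IDO1 through the kinases JAK1 and JAK2 and factors such as IRF1.

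Expression is given in TPM, a unit that scales the reads of a gene by its length and by the library's total. Read numbers are not kept in it, so the depth is unknown and no interval can be given. In the deposited table, values from 1 TPM upward with 3 or more decimals had lost their decimal mark. The mark was put back wherever the mean and standard error listed beside it allowed only 1 position, as they did for 6 of the 9 ligands. For CD276, CD47 and PDCD1LG2 all values that fit are given, and they differ by factors of 10. Where a pair of values is given without names, MDA PCa 2b comes first. For CD276 and CD47 the plain ratio between the lines is the same at each position. Ratios are given as fold, and as a log2 value of RC77 T/E over MDA PCa 2b after 1 TPM was added to each, a scale on which the change of low genes comes out too small. A gene was counted as past the fold at a log2 ratio of at least 1 in either direction, which is a 2-fold difference on that scale, and a gene listed at 0 in 1 line enters such counts only through the added 1 TPM. A value of 0 is reported only as listed at 0, because EEF1A1, a translation factor that every cell uses, was itself listed at 0 in MDA PCa 2b beside 2393 TPM in RC77 T/E.

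RC77 T/E expressed more of the ligands than MDA PCa 2b. At a threshold of 1 TPM, 3 of the 9 were expressed in MDA PCa 2b (CD276, PVR and CD47), where 49.6% of all genes reached it. The same 3 and CD274, PDCD1LG2 and TNFSF9 made 6 of 9 in RC77 T/E, beside 52.8% of all genes. VTCN1 and LGALS9 were below 1 TPM in both lines, and IDO1 was below it in MDA PCa 2b and listed at 0 in RC77 T/E. Of the 6 ligands with a mean of 1 TPM or higher, 4 were higher by at least 2-fold in RC77 T/E (CD274, PDCD1LG2, TNFSF9 and CD47), as were 19.4% of the 11624 genes with such a mean. None of the 6 was higher by that much in MDA PCa 2b, in which 20.0% of those genes were. PDCD1LG2 was listed at 0 in MDA PCa 2b and is counted only through the added 1 TPM, and without genes listed at 0 the count is 3. CD274, PDCD1LG2 and TNFSF9 reached that mean through RC77 T/E only and so had to be higher there, though not necessarily by 2-fold. This leaves CD47 as the 1 ligand expressed in both lines that was past the fold. The median log2 ratio of the 11624 genes was -0.15, and ratios relative to it are given where they matter.

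**Figure D1:**
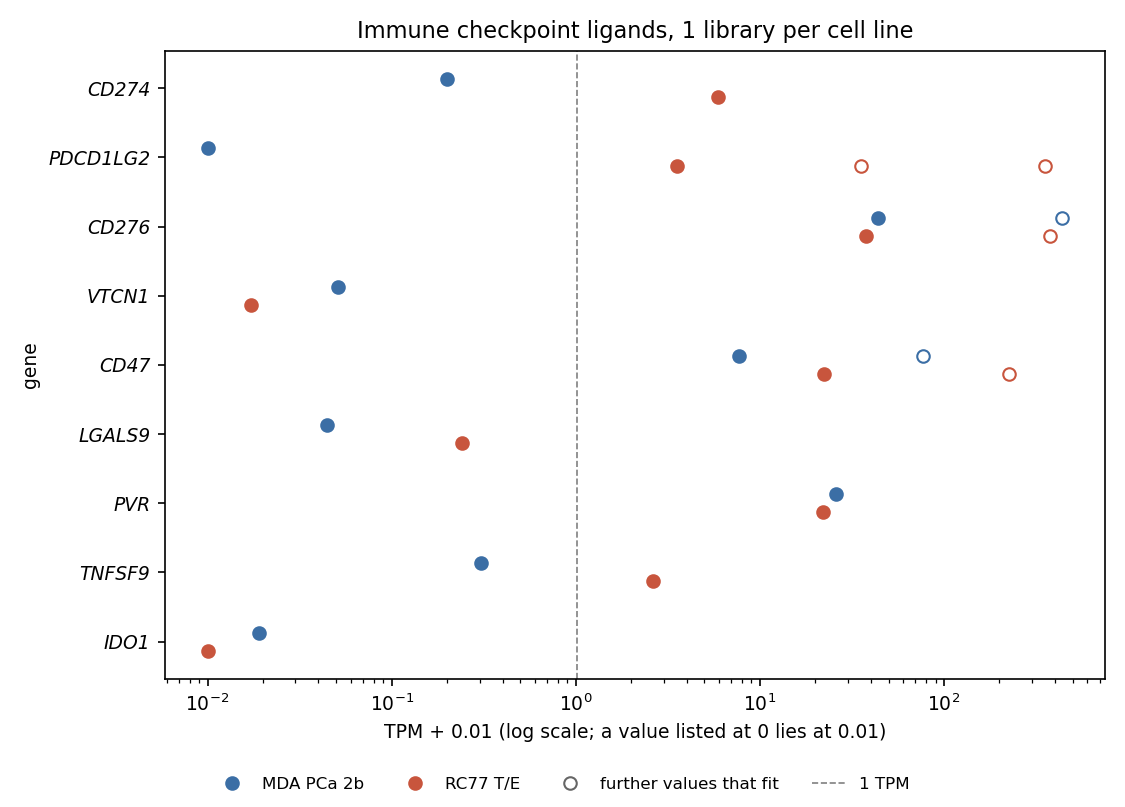
TPM of the 9 immune checkpoint ligands in MDA PCa 2b (blue) and RC77 T/E (red), 1 library each, on a log axis with 0.01 TPM added. Filled points are the lowest value that fits the deposited mean and standard error, open points are further values that fit, and the dashed line is 1 TPM. CD274, PDCD1LG2 and TNFSF9 lie on different sides of that line in the 2 lines, and CD276 and PVR lie close together.

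CD274 encodes PD-L1, the main ligand of PD-1. The gene (ENSG00000120217) spans, on chromosome 9 of GRCh38, the bases from 5450503 to 5470566, and the GENCODE release 29 annotation gives the same start and end on the plus strand. CD274 was at 0.189 TPM in MDA PCa 2b against 5.95 TPM in RC77 T/E, both with 1 position of the decimal mark. The RC77 T/E value was 31.5-fold higher. Its log2 ratio was 2.55, or 2.70 relative to the median of expressed genes, and 818 of those genes had a higher ratio. At least 7018 genes were nevertheless higher than CD274 in RC77 T/E, so its level there was modest. In bulk RNA, fewer cells with the transcript and less of it per cell cannot be told apart.

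The promoter of CD274 is shown because the gene differed most among the ligands with values above 0 in both lines and at least 1 TPM on average, beside that of TNFSF9, which also differed, and of CD276, which did not. RefSeq promoters of GRCh38.p14 were searched for 8 of the 10 genes, with 9 start sites. PDCD1LG2 and IDO1 have no promoter in that table. The 250 bases before each start site were searched on both strands for GAAANNGAA (the core of interferon regulatory factor sites), TTCNNNGAA (the GAS element that STAT factors bind), TGANTCA (AP-1) and CACGTG (E-box), and matches are in capitals. RefSeq start sites can differ from the listed gene ends. The windows of CD276, CD47 and LGALS9 lie inside the listed genes, and those of CD274, PVR and VTCN1 overlap them in part.
CD274, chr9:5450292-5450541, plus strand: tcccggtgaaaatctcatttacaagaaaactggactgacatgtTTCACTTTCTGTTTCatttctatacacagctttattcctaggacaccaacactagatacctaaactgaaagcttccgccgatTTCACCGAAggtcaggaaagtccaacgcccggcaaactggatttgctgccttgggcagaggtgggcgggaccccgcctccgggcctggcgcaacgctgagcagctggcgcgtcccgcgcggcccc
TNFSF9, chr19:6530776-6531025, plus strand: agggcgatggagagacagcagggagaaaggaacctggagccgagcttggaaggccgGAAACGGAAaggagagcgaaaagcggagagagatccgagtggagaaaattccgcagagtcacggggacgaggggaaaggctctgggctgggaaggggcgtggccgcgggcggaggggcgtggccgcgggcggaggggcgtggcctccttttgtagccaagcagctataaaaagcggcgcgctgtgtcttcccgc
CD276, chr15:73684133-73684382, plus strand, first of 2 start sites: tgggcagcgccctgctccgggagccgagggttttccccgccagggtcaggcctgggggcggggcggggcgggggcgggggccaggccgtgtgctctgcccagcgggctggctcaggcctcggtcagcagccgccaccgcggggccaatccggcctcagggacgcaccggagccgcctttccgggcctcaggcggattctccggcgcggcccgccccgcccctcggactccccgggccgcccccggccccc

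In CD274 the interferon factor core matched at 2 overlapping places on the minus strand, TTCACTTTC and TTCTGTTTC as read on the plus strand, which begin 207 and 201 bases before the start site. The GAS letters matched once more downstream, as TTCACCGAA beginning 125 bases before it. TNFSF9 held 1 core, GAAACGGAA, which begins 194 bases before the start site. The core was found before 2416 of 35116 RefSeq start sites, or 6.88%, and GAS before 2306, or 6.57%. Both together stood before 241 start sites, or 0.686%, CD274 among them. None of the 4 motifs was found in the windows of CD276, CD47, PVR, LGALS9, VTCN1 or NECTIN2. AP-1 letters stood before 6.57% and the E-box before 6.34% of all start sites and in none of the 8 genes. The CD276 window shown is 80.8% G and C, against 54.8% for CD274 and 64.4% for TNFSF9. A match of letters is a description of sequence, and no binding was measured.

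PDCD1LG2 encodes PD-L2, a further ligand of PD-1 that is typical of antigen-presenting cells. It (ENSG00000197646) is listed on chromosome 9 from 5510531 to 5571282, and 39964 bases separate it from the end of CD274. PDCD1LG2 was listed at 0 in MDA PCa 2b. In RC77 T/E the values that fit were 3.53, 35.3 and 353 TPM. PDCD1LG2 was thus above 1 TPM in RC77 T/E at every position, but whether it was below or far above CD274 is not determined, and no fold is given against a value listed at 0.

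By distance between listed starts, which are the lower coordinates, PDCD1LG2 is the nearest protein-coding neighbour of CD274, at 60.0 kb. By the gap between genes PLGRKT, listed from 5357971 to 5437925, is nearer. PDCD1LG2, like CD274, was listed above 1 TPM in RC77 T/E only. So was SPATA6L at -897.1 kb, at 0.0599 and 1.10 TPM, whose mean is below 1 TPM. Apart from PDCD1LG2, the table lists 18 other protein-coding genes that start within 1000 kb of the start of CD274, and 11 of them had a mean of at least 1 TPM. Their log2 ratios ran from -0.56 for SLC1A1, a glutamate transporter, to 1.47 for RANBP6, with a median of 0.36. Of 16 genes listed as neighbours, 14 were analysed (RIC1 and PLPP6 were not analysed here), and the 9 with such a mean were all within 2-fold on the scale with 1 TPM added, with a median of 0.11. SLC1A1, at 1.54 and 0.717 TPM, was 2.15-fold higher in MDA PCa 2b as a plain ratio. Past the fold toward RC77 T/E were 2 of the 11 and toward MDA PCa 2b none, beside 19.4% and 20.0% of all expressed genes. One was JAK2, the interferon gamma receptor kinase, whose listed start lies at -466.1 kb from that of CD274. The other was RANBP6, an importin at 560.5 kb, with 7.36 TPM in MDA PCa 2b against 22.1 TPM in RC77 T/E or 10 times both, which stands outside the gene lists and was named after its values were seen. PLGRKT, a plasminogen receptor at -92.5 kb, was at 18.7 TPM in MDA PCa 2b against 24.2 TPM in RC77 T/E or at 10 times both values. ERMP1, a peptidase of the endoplasmic reticulum at 299.3 kb, was at 20.8 and 31.5 TPM.

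**Figure D2:**
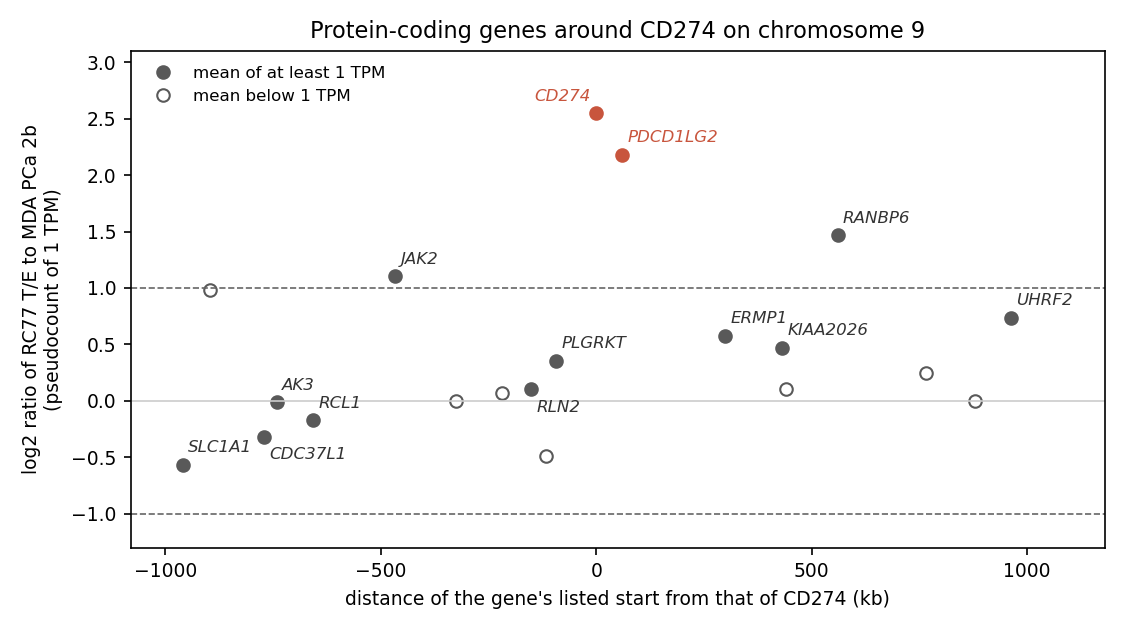
Log2 ratio, RC77 T/E over MDA PCa 2b (pseudocount of 1 TPM) of the protein-coding genes that start within 1000 kb of CD274, by distance of their listed start in kb. Filled points have a mean of at least 1 TPM and are named, open points are lower, dashed lines mark 2-fold, and open decimal marks are at their lowest position. CD274 at 2.55 and PDCD1LG2, listed at 0 in MDA PCa 2b, stand above the 11 other named genes, of which RANBP6 is highest at 1.47.

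CD276 encodes B7-H3, a B7 family member abundant on many carcinomas that dampens T cells through a receptor that is not settled. The gene (ENSG00000103855) is listed on chromosome 15 from 73683966 to 73714514. CD276 was at 43.8 TPM in MDA PCa 2b against 37.7 TPM in RC77 T/E, or at 438 and 377 TPM, since both positions fit. At either position it was above PVR in both lines, and the MDA PCa 2b value was 1.16-fold that of RC77 T/E. Its log2 ratio of -0.21 was close to the median of expressed genes, from which it differed by -0.06. VTCN1 encodes B7-H4, another inhibitory B7 member, on chromosome 1 from 117143587 to 117210960. VTCN1 was at 0.0412 TPM in MDA PCa 2b against 0.00720 TPM in RC77 T/E, far below 1 TPM in both.

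Of 12 other B7 and butyrophilin genes analysed, 7 reached 1 TPM in each line, beside 49.6% and 52.8% of all genes. These 7 had a mean of at least 1 TPM. None of the 7 was 2-fold higher in RC77 T/E but 1 was in MDA PCa 2b, beside 19.4% and 20.0% of all expressed genes, and their median log2 ratio was -0.14. That 1 gene was ICOSLG, the ligand of the costimulator ICOS, at 4.22-fold the RC77 T/E level. ICOSLG was at 9.25 TPM in MDA PCa 2b against 2.19 TPM in RC77 T/E, or at 10 or 100 times both values. CD80 and CD86, the B7 ligands of CD28 and CTLA4, were below 0.1 TPM in both lines, at 0.0179 and 0.00679 TPM in MDA PCa 2b and at 0.00541 and 0.0594 TPM in RC77 T/E. BTN2A1 and BTN3A2, butyrophilins of the group that presents phosphoantigen to gamma delta T cells, were expressed alike in both lines. BTN2A1 was at 11.4 and 10.2 TPM, and BTN3A2 at 6.57 and 7.26 TPM. VSIR was not analysed here.

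**Figure D3:**
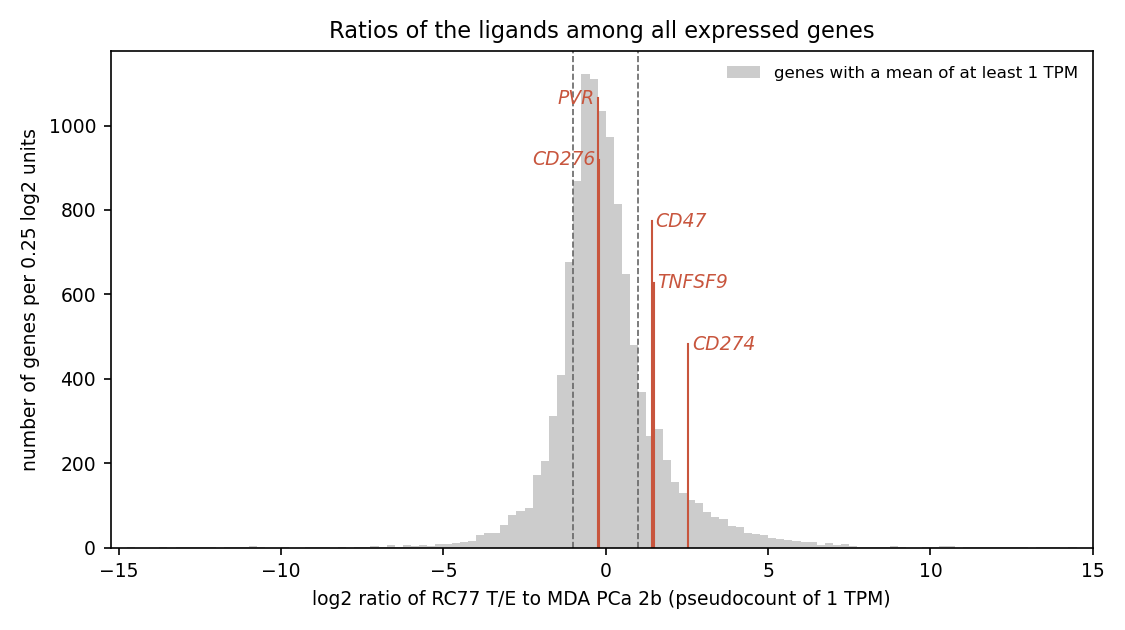
Number of genes per 0.25 log2 units of the ratio, RC77 T/E over MDA PCa 2b (pseudocount of 1 TPM), over 11624 genes with a mean of 1 TPM or higher, with 5 of the ligands marked by red lines whose heights carry no value. Dashed lines mark 2-fold. PVR and CD276 lie near the centre at -0.23 and -0.21, and CD47, TNFSF9 and CD274 lie to the right at 1.43, 1.48 and 2.55.

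PVR encodes CD155, the poliovirus receptor, which binds the inhibitory receptors TIGIT and CD96 and the activating receptor CD226. It (ENSG00000073008) is listed on chromosome 19 from 44643798 to 44666162. PVR was at 26.0 TPM in MDA PCa 2b against 22.0 TPM in RC77 T/E, both fixed, with a log2 ratio of -0.23, or -0.08 relative to the median. It was thus clearly expressed in both lines at nearly the same level. In GENCODE release 29 its 3' end shares 1306 bases with CEACAM19 on the same strand, and its whole annotated length lies opposite an antisense gene, and whether the counting used strand is not given in the sources used here, so its level is uncertain to that extent. CEACAM19 was at 9.09 TPM in MDA PCa 2b against 2.72 TPM in RC77 T/E, or at 10 or 100 times both. Of 5 other nectins and nectin-like genes listed, 2 were analysed and neither reached 1 TPM. CADM1, a nectin-like adhesion molecule that binds CRTAM on T cells, was at 0.0217 and 0.0846 TPM, and CRTAM was listed at 0 in both. The other 3, NECTIN1, NECTIN3 and NECTIN4, were not analysed here.

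TNFSF9 encodes the ligand of TNFRSF9 (CD137), a costimulator of T cells, and is the only member of the list known mainly for activation. It (ENSG00000125657) is listed on chromosome 19 from 6531026 to 6535924. TNFSF9 was at 0.298 TPM in MDA PCa 2b against 2.62 TPM in RC77 T/E, an 8.81-fold higher value with a log2 ratio of 1.48. Other TNF superfamily ligands were looked at for comparison. With TNFRSF14, the ligand of BTLA, 9 further genes were analysed, of which 4 had a mean of at least 1 TPM. None of these 4 was 2-fold higher in RC77 T/E but 2 were in MDA PCa 2b, beside 19.4% and 20.0% of all expressed genes. Of the 2, TNFSF4 reached that mean through MDA PCa 2b only, and the median log2 ratio of the 4 was -1.04. TNFSF4, the OX40 ligand, was at 2.07 TPM in MDA PCa 2b against 0.135 TPM in RC77 T/E. TNFSF15, which acts on death receptor TNFRSF25, was at 14.2 and 1.97 TPM or at 10 times both values. TNFRSF14 was at 21.3 TPM in MDA PCa 2b against 16.1 TPM in RC77 T/E, within 2-fold. CD70, CD40LG, FASLG, TNFSF14 and TNFSF18 were below 1 TPM or listed at 0, CD70 highest of them at 0.466 TPM in RC77 T/E and listed at 0 in MDA PCa 2b.

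CD47 encodes the signal read by SIRPA on macrophages. It (ENSG00000196776) is listed on chromosome 3 from 108043091 to 108091862. CD47 was at 7.69 TPM in MDA PCa 2b against 22.4 TPM in RC77 T/E, or at 76.9 and 224 TPM. At both positions the RC77 T/E value was 2.91-fold higher, with a log2 ratio of 1.43 at the lower position and 1.53 at the higher. CD47 was above PVR in RC77 T/E at either position, whereas in MDA PCa 2b their order depends on it.

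Genes of phagocytosis were listed beside CD47, both signals and receptors. Of the 8 analysed, 6 had a mean of at least 1 TPM, 4 of these were 2-fold or more up in RC77 T/E, with none up in MDA PCa 2b, beside 19.4% and 20.0% of all expressed genes, and the median log2 ratio was 2.27. Of the 4, LRP1 reached that mean through RC77 T/E only and so had to be higher there. CD24, which encodes a ligand of the macrophage receptor SIGLEC10, was at 1.03 TPM in MDA PCa 2b against 125 TPM in RC77 T/E. CD24 has close copies elsewhere in the genome that can share its reads, so its value is uncertain. LRP1, the phagocyte receptor for calreticulin, was at 0.714 and 17.6 TPM, and THBS1, which encodes thrombospondin, a secreted ligand of CD47, was at 5.78 and 64.2 TPM or at 10 times both. SIRPA, the receptor of CD47 itself, was at 5.18 TPM in MDA PCa 2b against 13.9 TPM in RC77 T/E, or 51.8 and 139 TPM. CALR, the calreticulin that invites engulfment when it reaches the surface, was at 655 and 551 TPM, and QPCTL, the enzyme that modifies CD47 for binding by SIRPA, was at 11.4 and 20.4 TPM or at 10 times both, a log2 ratio of 0.79. Both were within 2-fold.

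LGALS9 encodes galectin-9, a sugar-binding protein that HAVCR2 (TIM-3) on T cells recognises. It (ENSG00000168961) is listed on chromosome 17 from 27629798 to 27649560. LGALS9 was at 0.0348 TPM in MDA PCa 2b against 0.232 TPM in RC77 T/E, below 1 TPM in both. On the same chromosome lie its near copies LGALS9B (20449395 to 20467539) and LGALS9C (18476737 to 18494945), which were above 1 TPM in RC77 T/E. LGALS9C was at 0.0202 TPM in MDA PCa 2b against 2.79 TPM in RC77 T/E. LGALS9B was listed at 0 in MDA PCa 2b, and 2.40, 24.0 and 240 TPM fit in RC77 T/E.

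The coding sequences show how close these 3 genes are. In the longest coding transcript of each in GENCODE release 29, LGALS9 and LGALS9B were identical at 96.3% of 1065 aligned bases, LGALS9 and LGALS9C at 95.9%, and LGALS9B and LGALS9C at 99.5% of 1068. The first 90 coding bases are given with every place where the 3 differ in capitals, of which LGALS9B has 6 and LGALS9C 7 that are unlike LGALS9.
LGALS9, plus strand: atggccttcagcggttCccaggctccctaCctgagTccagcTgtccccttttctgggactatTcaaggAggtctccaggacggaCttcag
LGALS9B, minus strand: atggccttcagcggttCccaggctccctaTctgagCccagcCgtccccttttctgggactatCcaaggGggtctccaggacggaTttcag
LGALS9C, plus strand: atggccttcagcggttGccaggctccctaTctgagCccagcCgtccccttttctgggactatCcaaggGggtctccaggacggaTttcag

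Of the 50-base windows along the coding sequence, 12.3% for LGALS9 occurred unchanged in a transcript of another of the 3 genes, against 78.7% for LGALS9B and for LGALS9C. LGALS9 can thus mostly be told from its copies by sequence, while the split between LGALS9B and LGALS9C is uncertain. GENCODE release 29 also places a protein-coding gene on the same strand across 10980 bases of LGALS9. How shared reads were divided is not given in the sources used here.

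Several other galectins differed far more than LGALS9. Of 10 further galectins and HAVCR2 ligands, 7 had a mean of at least 1 TPM, of which 5 were 2-fold or more up in RC77 T/E, with 1 up in MDA PCa 2b, beside 19.4% and 20.0% of all expressed genes. Of the 5, LGALS9B, LGALS9C and CEACAM1 reached that mean through RC77 T/E only and so had to be higher there. The median log2 ratio of 1.89 is that of LGALS9C. LGALS1 encodes galectin-1, which can kill activated T cells. LGALS1 was at 4.79 TPM in MDA PCa 2b against 2791 TPM in RC77 T/E, a 583-fold higher value. LGALS3, which encodes galectin-3, a ligand of LAG3, was at 1.24 and 127 TPM, 102-fold higher. LGALS8 was alike in both, at 8.50 TPM in MDA PCa 2b against 8.27 TPM in RC77 T/E, and LGALS4 was at 1.23 and 0.206 TPM. CEACAM1, a cell adhesion molecule reported to bind HAVCR2, was at 0.0687 and 4.09 TPM. HMGB1, a chromatin protein that also binds HAVCR2 once released, was the 1 gene past the fold toward MDA PCa 2b, at 173 TPM beside 57.8 TPM.

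**Figure D4:**
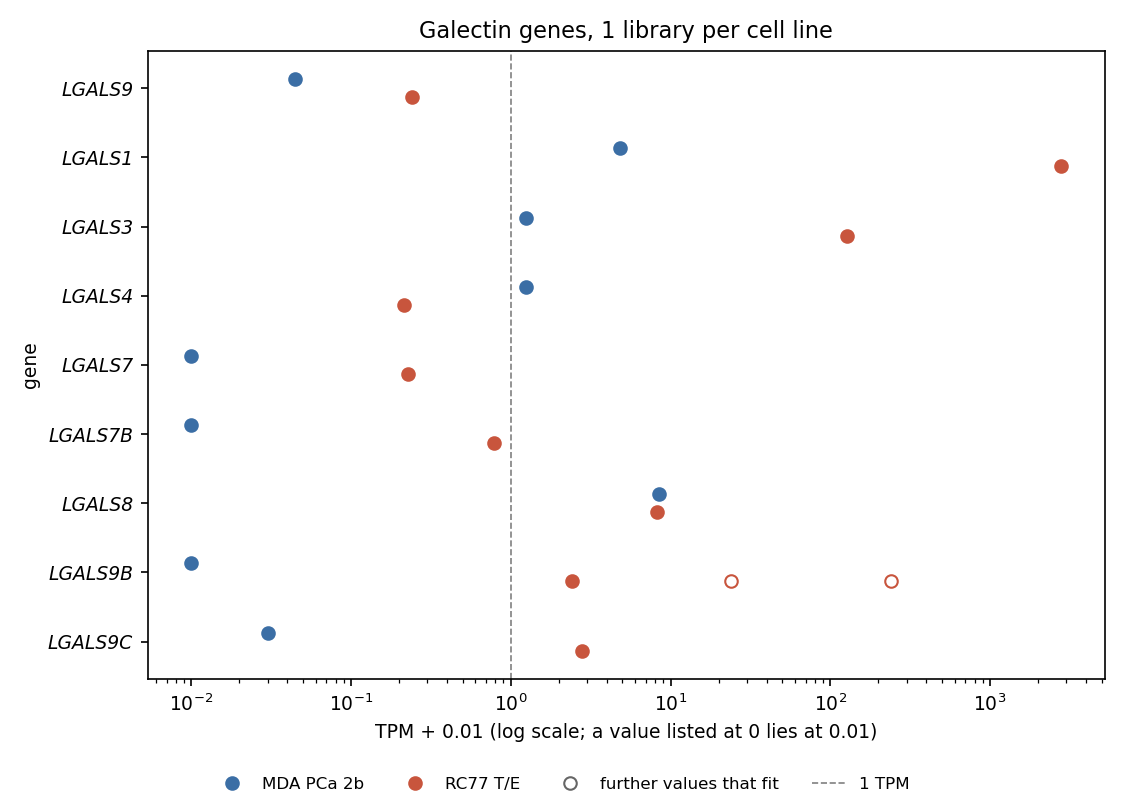
TPM of 9 galectin genes in MDA PCa 2b (blue) and RC77 T/E (red), 1 library each, on a log axis with 0.01 TPM added. Filled points are the lowest value that fits, open points further values that fit, and the dashed line is 1 TPM. LGALS1 reaches 2791 TPM in RC77 T/E, LGALS8 is alike in both, and LGALS9 is below 1 TPM in both.

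IDO1 encodes the interferon-induced enzyme that turns tryptophan into N-formylkynurenine and so starves and silences T cells. It (ENSG00000131203) is listed on chromosome 8 from 39902275 to 39928790. IDO1 was at 0.00892 TPM in MDA PCa 2b but listed at 0 in RC77 T/E. IDO2 and TDO2, the enzymes of the same step, were also listed at low values. IDO2 was at 0.0125 TPM in MDA PCa 2b against 0.00714 TPM in RC77 T/E, and TDO2 at 0.0668 TPM in the former and listed at 0 in the latter.

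Later steps were partly present. Of 12 genes of the pathway and of kynurenine transport and sensing analysed, 8 had a mean of at least 1 TPM, and 3 of these were 2-fold or more up in RC77 T/E, with none up in MDA PCa 2b, beside 19.4% and 20.0% of all expressed genes, and a median log2 ratio of 0.50. Of the 3, KYNU and CYP1A1 reached that mean through RC77 T/E only and so had to be higher there. KYNU, which cleaves kynurenine, was at 0.0938 TPM in MDA PCa 2b against 11.9 TPM in RC77 T/E. AHR, the receptor that kynurenine binds, was at 2.85 and 7.01 TPM or at 10 or 100 times both. Its target CYP1A1 was at 0.561 and 9.52 TPM, while CYP1B1, another target, was at 17.4 TPM in MDA PCa 2b against 10.4 TPM in RC77 T/E or at 10 times both. KYAT1, KYAT3 and WARS1 were not analysed here.

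Interferon gamma acts upstream of CD274 and IDO1. IFNG itself was listed at 0 in both lines. Of 12 genes of its signaling analysed, 11 had a mean of at least 1 TPM, 6 of these were 2-fold or more up in RC77 T/E, with none up in MDA PCa 2b, beside 19.4% and 20.0% of all expressed genes, and the median log2 ratio was 1.10. Of the 6, SOCS1 reached that mean through RC77 T/E only and so had to be higher there. JAK1 was at 1.14 TPM in MDA PCa 2b against 21.3 TPM in RC77 T/E, or at 10 times both, and JAK2 was at 1.12 and 3.55 TPM or at 10 or 100 times both. Of the receptor chains, IFNGR1 was at 1.93 and 5.34 TPM and IFNGR2 at 1.51 and 6.28 TPM, or 10 or 100 times these, with log2 ratios of 1.11 and 1.54. IRF9, a partner of STAT2, was at 4.33 and 20.8 TPM or at 10 times both. SOCS1, the feedback inhibitor of JAK kinases, was at 0.307 TPM in MDA PCa 2b against 4.12 TPM in RC77 T/E.

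IRF1, IRF2 and STAT3, which can act on the CD274 promoter, differed less. IRF1 was at 4.10 and 5.24 TPM, IRF2 at 10.1 and 8.22 TPM, and STAT3 at 25.6 and 23.8 TPM. These were within 2-fold. No protein or phosphorylation was measured, and the part of these genes in the level of CD274 was not tested.

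Genes that act on PD-L1 after translation differed in both directions. All 9 analysed had a mean of at least 1 TPM, 2 were 2-fold or more up in RC77 T/E, with 3 up in MDA PCa 2b, beside 19.4% and 20.0% of all expressed genes, and the median log2 ratio was -0.52. STUB1, a ubiquitin ligase at 8.81 and 4.27 TPM or at 10 or 100 times both, has a log2 ratio of -0.90 at the lowest position and -1.04 at the highest, where it makes the 3 into 4. Of the 2, B3GNT3 reached that mean through RC77 T/E only and so had to be higher there. CMTM6, which keeps PD-L1 from being degraded, was expressed alike at 43.1 TPM in MDA PCa 2b against 35.0 TPM in RC77 T/E or at 10 times both. CMTM4 was at 26.8 and 9.71 TPM or at 10 times both, 2.76-fold higher in MDA PCa 2b. SPOP, the adaptor by which a CUL3 ubiquitin ligase targets PD-L1 and a gene often mutated in prostate cancer, was at 30.0 and 9.71 TPM or at 10 times both, 3.09-fold higher in MDA PCa 2b. COPS5, which removes ubiquitin from PD-L1, was at 9.48 and 3.50 TPM or 10 times both, 2.71-fold higher in MDA PCa 2b. GSK3B, which marks PD-L1 for degradation, was at 6.41 and 24.1 TPM or 10 times both, 3.75-fold higher in RC77 T/E. B3GNT3, a glycosyltransferase that modifies PD-L1, was at 0.0644 TPM in MDA PCa 2b against 32.7 TPM in RC77 T/E.

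**Figure D5:**
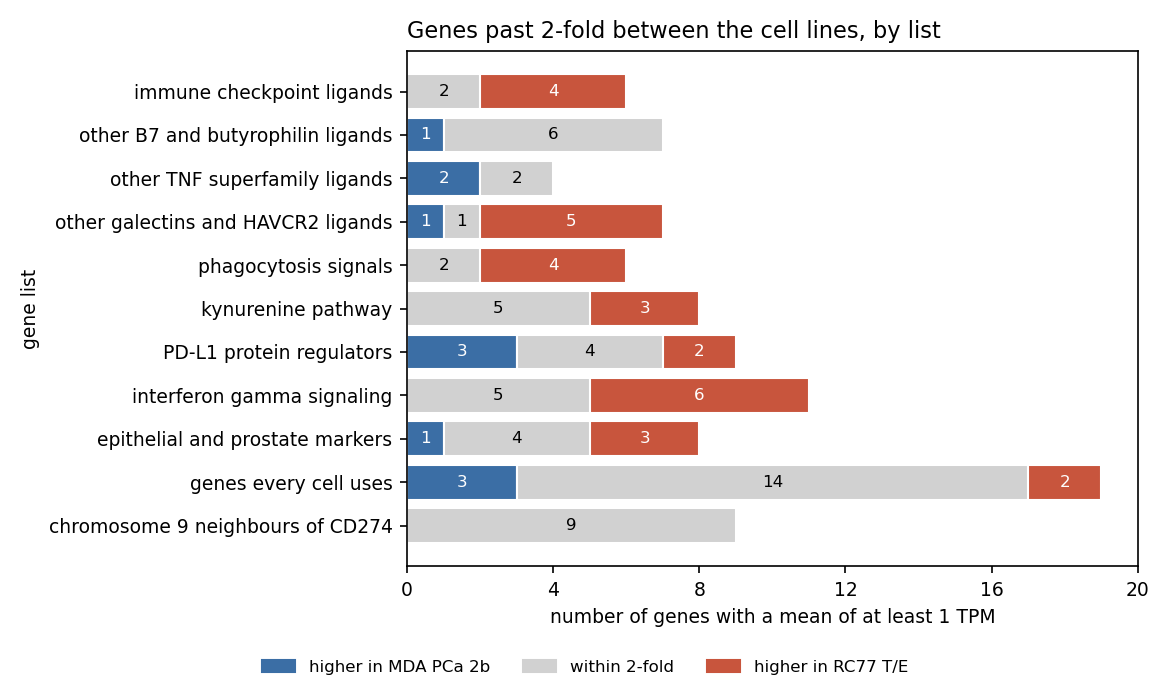
Number of genes with a mean of 1 TPM or higher in each list that were at least 2-fold higher in MDA PCa 2b (blue), within 2-fold (grey) or 2-fold or more up in RC77 T/E (red), 1 library per line, for lists with at least 4 such genes. Of interferon gamma signaling genes 6 of 11 are red and none blue. All 9 listed chromosome 9 neighbours are grey, in a list without JAK2 and RANBP6, which lie near CD274 and are past the fold. Open decimal marks are at their lowest position, with 1 TPM added.

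A list of 13 receptors of T cells and NK cells for these and related ligands was made without SIRPA. None of the 13 reached 1 TPM in MDA PCa 2b and 1 did in RC77 T/E, beside 49.6% and 52.8% of all genes. The 1 was PVRIG, an inhibitory receptor for nectins and the most abundant in both lines, at 0.272 TPM in MDA PCa 2b against 1.83 TPM in RC77 T/E. The 13 summed to 0.539 and 2.90 TPM, with 7 and 3 of them listed at 0. PDCD1, which encodes PD-1, was listed at 0 in MDA PCa 2b and was at 0.0282 TPM in RC77 T/E, TIGIT was listed at 0 in both, and HAVCR2 was at 0.0370 and 0.0333 TPM.

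Markers of other cells were checked because PD-L1, PD-L2 and SIRPA are also made by myeloid cells. Of 12 immune cell markers, none reached 1 TPM in MDA PCa 2b and 2 did in RC77 T/E, beside 49.6% and 52.8% of all genes. The summed level of the 12 was 1.54 and 43.5 TPM. CD68 was the most abundant in both, at 0.663 TPM in MDA PCa 2b against 37.9 TPM in RC77 T/E, and encodes a lysosomal protein that is not confined to macrophages. CD14, the other marker above 1 TPM, was at 0.0730 and 4.92 TPM. PTPRC, which encodes CD45 and marks all nucleated blood cells, was at 0.0113 TPM in MDA PCa 2b but listed at 0 in RC77 T/E, and CSF1R, a macrophage receptor, was at 0.0314 and 0.353 TPM. CD3D, MS4A1 and GNLY were listed at 0 in both, and the markers listed at 0 numbered 4 for MDA PCa 2b but 6 for RC77 T/E. CD14 and CD68 were thus higher in the same line as CD274 and PDCD1LG2, while PTPRC, the defining leukocyte gene, was listed at 0 there. The markers below 1 TPM ran in both directions. CD8A, of cytotoxic T cells, was at 0.0917 and 0.304 TPM, and CD3E, of T cells, was listed at 0 in MDA PCa 2b and was at 0.0126 TPM in RC77 T/E. Higher in MDA PCa 2b were LYZ, a myeloid lysozyme gene, at 0.501 TPM but listed at 0 in RC77 T/E, CD4 at 0.146 and 0.0146 TPM, and NKG7, of cytotoxic cells, at 0.0215 TPM but listed at 0 in RC77 T/E. The part of cells or genes of this kind in the ligand levels was not tested.

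None of 6 platelet markers and none of 6 stromal and endothelial markers reached 1 TPM in either line, beside 49.6% and 52.8% of all genes. The platelet markers summed to 0.410 TPM in MDA PCa 2b against 1.13 TPM in RC77 T/E, TUBB1 highest in both and PF4 and GP9 listed at 0 in both. The stromal and endothelial markers summed to 1.31 and 0.131 TPM, led by LUM in MDA PCa 2b and PDGFRB in RC77 T/E. Epithelial genes were expressed in both lines, as their label asks. KRT18 was at 320.5 TPM in MDA PCa 2b against 325 TPM in RC77 T/E, and EPCAM, CDH1 and KRT8 were above 1 TPM in both. KLK3, which encodes PSA, was at 5323 TPM in MDA PCa 2b but listed at 0 in RC77 T/E. The basal keratin gene KRT5 was at 0.00435 and 4027 TPM. KRT14, another keratin gene of the list, was at 37.4 TPM in MDA PCa 2b against 3255 TPM in RC77 T/E. KLK3, a marker of luminal prostate cells, was therefore listed at 0 in RC77 T/E, the line with the higher CD274, PDCD1LG2, TNFSF9 and CD47. Of 8 epithelial and prostate genes analysed, all with a mean of 1 TPM or higher, 3 were past the fold toward RC77 T/E and 1 toward MDA PCa 2b, beside 19.4% and 20.0% of all expressed genes, 4 were within it, and the median log2 ratio was 0.54. KRT5 and TP63 reached that mean through RC77 T/E only and KLK3 through MDA PCa 2b only. TP63, the basal factor, was listed at 0 in MDA PCa 2b, and 5.17 and 51.7 TPM fit in RC77 T/E.

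Genes that every cell uses were listed for comparison. Of 20 listed, 19 were analysed, and 18 of them reached 1 TPM in MDA PCa 2b, as did 19 in RC77 T/E. Past the fold were 2 toward RC77 T/E and 3 toward MDA PCa 2b, beside 19.4% and 20.0% of all expressed genes, the other 14 were within it, and the median log2 ratio was -0.03. The 2 were EEF1A1, listed at 0 in MDA PCa 2b and so without a fold, and ACTB, the actin gene, at 765 and 1836 TPM. The 3 included the ribosomal protein genes RPL13A, at 8828 and 2492 TPM, and RPLP0, at 2715 and 1080.1 TPM. TUBB, a tubulin gene, has a log2 ratio of 0.78 at the lowest decimal position and 1.01 at the highest, where it passes the fold too. Closer together, GAPDH, the glycolytic enzyme, was at 1957 TPM in MDA PCa 2b against 1923 TPM in RC77 T/E. B2M, the light chain of the antigen-presenting molecules, was at 629 and 644 TPM. ATP5F1B was not analysed here. With 1 library of each line, lineage, medium and donor cannot be told apart.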

How the data were processed

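The data are the TPM of 2 libraries, 1 for each cell line. Per the labels, RNA was extracted with TRIzol and libraries were prepared with a directional paired-end kit. The submitters' processing notes list CASAVA, FastQC 0.11.9, Trimmomatic 0.38, Salmon 1.2.0 and GRCh38, with no role or order. The authors deposited TPM, with Ensembl identifiers, positions, the mean and the standard error, and row identifiers have the form that Cufflinks gives. The annotation is not given in the sources used here. No read counts were used, so depth and its precision are unknown. The design had assumed plain TPM.

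Commas stood in 10361 values of MDA PCa 2b and 11082 of RC77 T/E. Decimal marks were placed so that 1 to 3 digits stood before and at least 3 after, and pairs whose mean and standard error equalled the deposited ones as rounded there were kept. This left 1 position for 16212 of 22704 loci and several for 6492. For these the lowest was used in sums, ratios and counts. Restoration was tested on simulated data written by the same rules that it inverts. The test thus cannot show that the deposited values lost their marks in that way. At the lowest positions all TPM summed to 751125 and 682469, and at the highest to 2416346 and 2140326, so library totals are not determined. Of the deposited lines, 87 repeated a locus and were dropped, and loci under the same symbol were added up.

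The ratio was taken on the log2 scale, RC77 T/E over MDA PCa 2b, with 1 TPM added to both. With 1 library per line no test was made. Members and genes of the lists could be named, with RANBP6 and CEACAM19, which overlaps PVR, beside them. Members and lists were chosen with earlier results of these data known. Genes without a row were not analysed here, and counts, sums and medians of lists omit a few planned genes that are not reported here. Strands, overlaps and coding sequences are from GENCODE release 29, and promoters from RefSeq on GRCh38.p14. Coding sequences were aligned globally with Biopython 1.88. The planned protein comparison was not run. Alternatives concerned the pseudocount, scaling, thresholds, decimal position, summing of loci and the set of background genes. Python 3.11.15, numpy 2.4.6 and matplotlib 3.10.9 were used.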

Additional observations from a re-analysis of the deposited data

How the results depend on the processing

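The count of ligands at 1 TPM or more was 3 for MDA PCa 2b, with 6 for RC77 T/E, beside 49.6% and 52.8% of all genes. At a threshold of 0.5 TPM these counts were the same, and at 5 TPM they were 3 and 4. The 4 holds at the lowest decimal position, with PDCD1LG2 at 3.53 TPM in RC77 T/E, and would be higher at 35.3 or 353 TPM. The share of all genes at 0.5 or 5 TPM is not given here. The count of ligands 2-fold or more up in RC77 T/E was 4 with a pseudocount of 0.1 TPM, ratios centred on the median, a common upper quartile, only the largest locus of a symbol, and the highest decimal position. It was 3 for the plain ratio and, in an alternative chosen after seeing the data, with genes listed at 0 left out, since PDCD1LG2 then has no ratio. No ligand was 2-fold higher in MDA PCa 2b among expressed genes under any of these. The share of genes past the fold ran from 14.4% to 21.9% for RC77 T/E and from 14.5% to 23.5% for MDA PCa 2b, both lowest over all genes above 0 in either line.

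Of 72 alternative list medians 8 moved, all with the smaller pseudocount or none: those of TNF ligands (-1.74 and -1.78), galectins (4.63 and 6.29), receptors and immune markers. The last 2 rest on PVRIG alone and on CD14 and CD68, which passed through RC77 T/E only. Medians near 0 changed sign when centred, to 0.01 for B7 genes and 0.13 for genes that every cell uses, the latter also to 0.09 at a common upper quartile. Of 47 alternative ratios of 8 ligands, 7 moved by more than 1.5 times, in the same 2 settings. The log2 ratio was 4.39 and 4.98 there for CD274, 2.78 and 3.14 for TNFSF9, 1.30 and 2.74 for LGALS9, and -2.52 with no pseudocount for VTCN1. The last 2 are below 1 TPM in both lines, and VTCN1, at -0.05, was at 0.11 when centred on the median. Upper quartile scaling shifts a plain ratio by 0.12, and ratios with a pseudocount by less. CD276 and PVR stayed within 2-fold under every alternative.

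No paired analysis was possible because only 1 library was made from each line. The comparison of proteins was not run, and IDO1 and PDCD1LG2, each listed at 0 in a line, have no plain ratio. With depth unknown, values below 1 TPM cannot be given a precision, and an open decimal mark leaves the levels of CD276, CD47 and PDCD1LG2 uncertain by factors of 10.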
